A study of Rattus norvegicus with 2 samples.

Results

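Circular RNAs (circRNAs) were listed for 54 host genes of TGF-beta and BMP, Wnt, Notch, receptor tyrosine kinase, guidance and Hippo signaling in rat lung. The genes were chosen by symbol, with no measured value used, and hold 106 of 4734 circRNAs and 54 of 2494 host genes. All 54 symbols matched the GRCr8 gene table. A symbol pattern also takes in genes known for other roles, here 11 of the 54: Bmp2k, Tcf25, Tcf4, Tcf12, Fgfr1op2, Ctnnbl1, Fgf12, Stk35, Stk39, Stk24 and Mast2. No circRNA was listed in the table used here for a Wnt ligand, a Frizzled receptor, an Axin, Jag1, Jag2, Eng, Egfr, Met or Kdr.

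TGF-beta and BMP ligands bind receptor serine/threonine kinases, which phosphorylate Smad proteins that enter the nucleus with Smad4. Wnt ligands act through Frizzled receptors with the coreceptors Lrp5 and Lrp6 to stabilize beta-catenin, while the Hippo kinases hold back Yap1 and its DNA-binding partners of the Tead family. In the lung, these systems, together with the vascular receptors Flt1 and Tek, shape growth of the airways, upkeep of the endothelial barrier and repair of the alveoli.

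Lung tissue came from Sham SD rats, which received PBS by intratracheal spray, and from LPS rats, which received lipopolysaccharide at 2 mg/kg by the same route, both taken at 24 h. The study used 12 rats, and their age and sex are not given in the sources used here. The comparison asks how circRNA levels differ in this model of acute lung injury. There was 1 Sham library and 1 LPS library, and the sources used here do not say how many rats contributed RNA to each.

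Each circRNA was identified by its back-splice junction, the site where a downstream splice end is joined to an upstream one, and positions are on rn6 as deposited. Its level is the number of reads over that junction per 1000000 junction reads of the library (CPM), with no length term. The Sham library held 38112 junction reads and the LPS library 52505, so that 1 read was worth 26.2 CPM and 19.0 CPM. The lowest listed value was 2 reads in each library, so a circRNA listed in a single library was taken to have 0 or 1 read in the other. The level of a host gene is the sum over its junctions, and it is not the level of its mRNA, which was not analysed here.

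Host genes with at least 20 reads over both libraries were compared, and those with a log2 ratio of at least 1 in size, after adding 0.5 reads, were counted as different. Intervals are 95% intervals, Wilson for a level and exact conditional binomial for a fold. They describe the error of counting alone, because amplified reads that carry no molecular identifier do not each stand for a molecule. With 1 library per group, no difference has a replicate check and no test was made.

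Of the 54 host genes, 22 reached 20 reads. In the LPS library 4 of these were at least 2-fold higher (18.2%), beside 24.3% of all 757 host genes with that many reads. Another 3 were at least 2-fold lower (13.6%), beside 20.3% of all. The higher host genes were Pdgfb, Smad2, Tcf4 and Stk3, and the lower ones were Tek, Sema3e and Tgfbr2. The other 15 lay within 2-fold (68.2%, against 55.4% of all). With 22 genes these shares lie near those of the table, and the median log2 ratio was -0.16, against 0.08 over all.

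The balance of higher and lower calls depended on the scale. Higher calls made up 57.1% of the calls among these host genes and 54.4% among all host genes when column totals were the scale. The circRNAs listed in both libraries had a median log2 ratio of -0.46, and with that median as the scale the shares were 75% (6 higher, 2 lower) and 76.8%. Those with at least 50 reads had a median of 0.44, and on that scale the shares were 30% (3 higher, 7 lower) and 36.8%. On each scale the share was near that of the whole table. Pdgfb, Smad2, Tcf4, Tek and Sema3e stayed past 2-fold on all 3 scales, whereas Stk3 and Tgfbr2 each dropped below it on 1 of them, at log2 ratios of 0.59 and -0.85. Others passed 2-fold on 1 scale only, Flt1 (1.29) and Bmp6 (1.18) on that of all shared circRNAs. On the scale with the 50-read minimum these were Stk4 (-1.36), Bmpr2 (-1.14), Smad6 (-1.13) and Fgfr2 (-1.11).

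Together the 54 host genes gave 1084 Sham reads and 1389 LPS reads, or 28442.5 CPM (26821 to 30159.5) and 26455 CPM (25116 to 27862). They made up 2.84% of junction reads in Sham and 2.65% in LPS, a fold of 0.930 (0.858 to 1.01). The difference was not detectable at this depth, and its sign flips on the scale of all shared circRNAs, where the log2 ratio was 0.36 in place of -0.10.

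**Figure D1:**
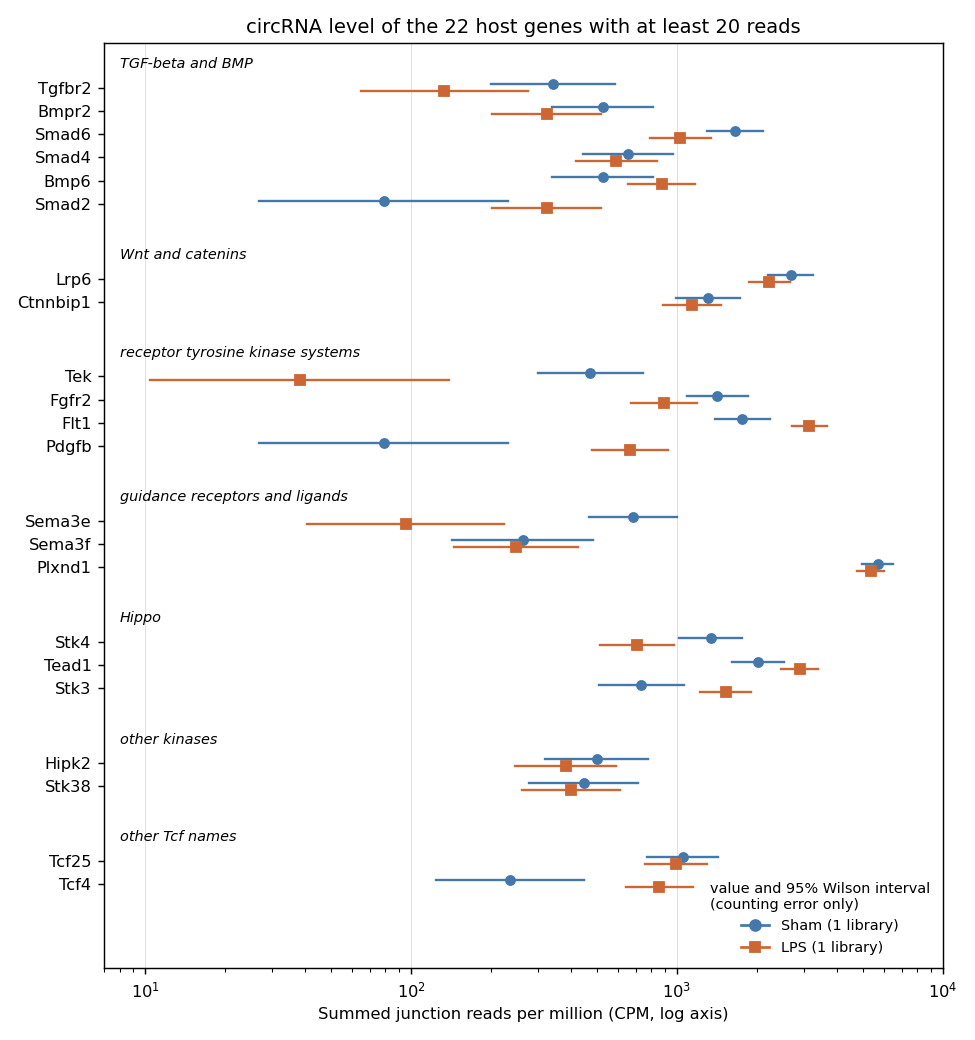
Circles (Sham) and squares (LPS) give the summed level of each of the 22 host genes with at least 20 reads, in CPM on a log axis, with bars for the 95% Wilson interval of 1 library. Intervals of the Sham and LPS libraries lie apart for Pdgfb, Tcf4, Stk3, Flt1, Tek, Sema3e and Stk4, and overlap for the others.

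TGF-beta and BMP genes formed the largest group by number, with 14 host genes and 25 circRNAs. They include Bmp2k, known for another role and listed only in LPS, with 7 reads. Their sum was 4775 CPM in Sham and 3562 CPM in LPS, a fold of 0.746 (0.605 to 0.920). This lower level was not kept on the scale of all shared circRNAs, where the log2 ratio was 0.039 in place of -0.42. Of the 6 with at least 20 reads, Smad2 was higher and Tgfbr2 lower.

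Among ligands, no TGF-beta itself was listed and Bmp6, a BMP with a role in iron balance and bone, was represented by 1 junction on chromosome 17 (26968192 to 26969252). It had 20 reads in Sham and 46 in LPS, or 525 and 876 CPM, a fold of 1.67 (0.968 to 2.98). The interval spans no difference. Bmper, a secreted protein that binds BMPs, was listed only in Sham, with 10 reads over 2 junctions that share the end 24434916 on chromosome 8. Allowing for hidden reads, its level was at least 2.19-fold lower in LPS. Here and below, such a bound takes the listed reads as counted and leaves out their own counting error. Bmp1, a protease that processes collagens and BMP antagonists, was also listed only in Sham, with 8 reads over 3 junctions.

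For the receptors, Tgfbr2, which binds TGF-beta and starts its signal, had 13 Sham reads and 7 LPS reads over 1 junction on chromosome 8 (124353233 to 124355370). Its level was 341 CPM in Sham and 133 CPM in LPS, 2.56-fold lower (0.949 to 7.57). The call thus rests on few reads and the counting interval includes no difference. Bmpr2, the type II BMP receptor mutated in heritable pulmonary hypertension, had 525 CPM and 324 CPM, a fold of 0.617 (0.304 to 1.24). Its 5 junctions on chromosome 9 did not go the same way. The junction from 66604896 to 66620541 was listed only in LPS with 9 reads, under 13 gene names, and the one from 66618610, which has the same end, had 11 Sham reads and 6 LPS reads. With circRNAs of a single gene name only, the Bmpr2 log2 ratio was -1.73 in place of -0.69, past 2-fold. The activin and ALK receptors Acvr1, Acvr1b, Acvr2a and Acvrl1 each had 1 junction. Acvr1, with 12 Sham reads and 4 LPS reads, had the most of them, and the other receptors had 2 to 4 reads in a single library.

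Smad proteins carry the signal to the nucleus, and 4 of their genes were listed. Smad2, a receptor-regulated Smad of the TGF-beta branch, had 3 Sham reads and 17 LPS reads, or 78.7 and 324 CPM, 4.11-fold higher (1.19 to 21.9). Its 3 junctions share the start 72571325 on chromosome 18 and differ in their ends. The shortest, 288 nt long, had 3 Sham reads and 8 LPS reads, and the longer ones were listed only in LPS, with 6 and 3 reads. Reading their fill-in as 1 read each brought the Smad2 log2 ratio from 1.86 to 1.21.

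Smad4, the partner shared by both Smad branches, had 656 CPM in Sham and 590.4 CPM in LPS, a fold of 0.900 (0.514 to 1.59). Its levels did not differ beyond counting error. Smad6, which inhibits BMP signaling, had the most reads of the Smads and a single junction on chromosome 8 (68953235 to 68957609). It had 63 reads in Sham and 54 in LPS, or 1653 and 1028 CPM, a fold of 0.622 (0.424 to 0.909). That is under 2-fold, though the interval lies below 1. Smad1 was listed only in LPS, with 2 reads.

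Wnt pathway and catenin genes were fewer, with 5 host genes and 11 circRNAs. They include Ctnnbl1, known for another role, with 8 Sham reads and 2 LPS reads, and no sum without it was computed. Their sum was 4592 CPM in Sham and 3657 CPM in LPS, a fold of 0.796 (0.645 to 0.983). The sign flips on the scale of all shared circRNAs, from a log2 ratio of -0.33 to 0.13. Neither of the 2 with at least 20 reads passed 2-fold.

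Lrp6, an essential Wnt coreceptor, gave 102 Sham reads and 117 LPS reads, or 2676 and 2228 CPM, a fold of 0.833 (0.633 to 1.10). This near balance came from junctions on chromosome 4 that went opposite ways. The 394 nt junction from 168296980 to 168297373 had 69 reads in Sham and 42 in LPS, a fold of 0.442 (0.294 to 0.658). The junction from 168219620 to 168221653 had 29 reads in Sham and 63 in LPS, a fold of 1.58 (1.001 to 2.54). Their fold intervals do not overlap. A further junction from the same start to 168221556 was listed only in LPS, with 7 reads.

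Its close relative Lrp5 had fewer reads, 13 in Sham and 6 in LPS, or 341 and 114 CPM, 2.98-fold lower (1.06 to 9.58). All 13 Sham reads were at 1 junction on chromosome 1 (218880619 to 218883236), which had 2 LPS reads, and the other 4 LPS reads were at a junction listed only in LPS. Lrp5 was therefore below the read minimum, and the 4 reads of the junction listed only in LPS are too few for a direction. Inside the cell, Ctnnbip1 binds beta-catenin and blocks its contact with Tcf factors. It had 50 Sham reads and 60 LPS reads at 1 junction on chromosome 5 (166485517 to 166492515), or 1312 and 1143 CPM, a fold of 0.871 (0.588 to 1.29). Ctnna1, alpha-catenin of the adherens junction, had 2 Sham reads and 7 LPS reads.

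Receptor tyrosine kinase systems, with 10 host genes and 22 circRNAs, summed to 4670.4 CPM in Sham and 5028 CPM in LPS, a fold of 1.08 (0.887 to 1.31). The sum includes 2 genes known for other roles, Fgfr1op2 with 10 Sham reads and 4 LPS reads, and Fgf12 with 3 reads in Sham only. The log2 ratio of this sum was 0.11, and it changes sign on the scale of shared circRNAs with at least 50 reads, at -0.34. The near equal sum hid large differences in both directions, with Pdgfb at the top and Tek at the bottom of all 22 host genes with at least 20 reads.

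Pdgfb encodes the PDGF-B chain, a growth factor for pericytes and fibroblasts. It had 3 reads in Sham and 35 in LPS, or 78.7 CPM (26.8 to 231) and 667 CPM (479 to 927), 8.47-fold higher (2.67 to 43.0). Of the LPS reads, 31 were at the junction from 121219130 to 121220758 on chromosome 7, which also had the 3 Sham reads. The other 4 were at a junction from 121220553 to 121222214, listed only in LPS. Of its receptors, Pdgfra was listed, with 2 reads in LPS only.

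Flt1, a VEGF receptor of endothelial cells and monocytes, had 67 reads in Sham and 165 in LPS, or 1758 and 3143 CPM, a fold of 1.79 (1.34 to 2.41). It was just under 2-fold, and past it on the scale of all shared circRNAs (log2 ratio 1.29). A 682 nt junction on chromosome 12 (9061581 to 9062262) carried 92.5% of its Sham reads and 100% of its LPS reads. That junction alone had 62 and 165 reads, a fold of 1.93 (1.43 to 2.63). The other Flt1 junction, from 9165634 to 9177290, had 5 Sham reads and was not listed in LPS.

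Tek encodes Tie2, the angiopoietin receptor that keeps endothelium quiescent. It had 18 reads in Sham and 2 in LPS, or 472 CPM (299 to 746) and 38.1 CPM (10.4 to 139), 12.4-fold lower (2.97 to 110). The difference was carried by the junction from 113794314 to 113803150 on chromosome 5, with 14 Sham reads and none listed in LPS, at least 4.07-fold lower. A junction from 113776672 was listed only in Sham with 4 reads and one from 113781358 only in LPS with 2 reads, both ending at 113787217. Reading each fill-in as 1 read brought the Tek log2 ratio from -3.35 to -2.58, still past 2-fold. Without the most-read junction, which leaves 4 Sham reads and 2 LPS reads, the Tek log2 ratio was -1.31. In tissue samples such as these, fewer cells of a type and less RNA per cell cannot be told apart.

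Circular RNAs of 3 of 8 endothelial marker genes were listed, Vwf, Emcn and Ptprb. Their sum was 2073 CPM in Sham and 1257 CPM in LPS, a fold of 0.606 (0.431 to 0.852). Vwf, the most abundant, had 58 and 56 reads, Emcn had 21 and 6, and Ptprb had 4 reads in LPS only, too few for a direction. In CPM the folds of Vwf and Emcn were 0.701 (0.477 to 1.03) and 0.207 (0.0685 to 0.531). Pecam1, Cdh5, Cldn5, Tie1 and Car4 had no circRNA listed, so this marker list rests on few genes. Its part in the Tek and Flt1 results was not tested.

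Fgfr2, an FGF receptor of the lung epithelium, had the most circRNAs of any of the 54 host genes, 6. Its sum was 54 reads in Sham and 47 in LPS, or 1417 and 895 CPM, a fold of 0.632 (0.418 to 0.952). Its junctions on chromosome 1 went opposite ways. The shortest, from 200671013 to 200672411, had 10 reads in Sham and 32 in LPS, a fold of 2.32 (1.11 to 5.30). The 3 junctions with the start 200648164 together had 37 reads in Sham and 15 in LPS, 3.40-fold lower (1.82 to 6.66). Singly they were not alike, since the one to 200658087 had 12 and 10 reads, a fold of 0.605 (0.234 to 1.53), and the one to 200671090 had 14 and 3. The longest of them shares its end, 200672411, with the shortest one and had 11 Sham reads and 2 LPS reads. The remaining junctions, from 200606971 and from 200625594, were listed only in Sham, with 4 and 3 reads.

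Below 20 reads, Fgfr1, the FGF receptor prominent in mesenchyme, had 9 Sham reads and 2 LPS reads. Insr, the insulin receptor, had 10 and 7 reads, and Igf1r, its relative for insulin-like growth factors, had 4 reads in Sham only.

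**Figure D2:**
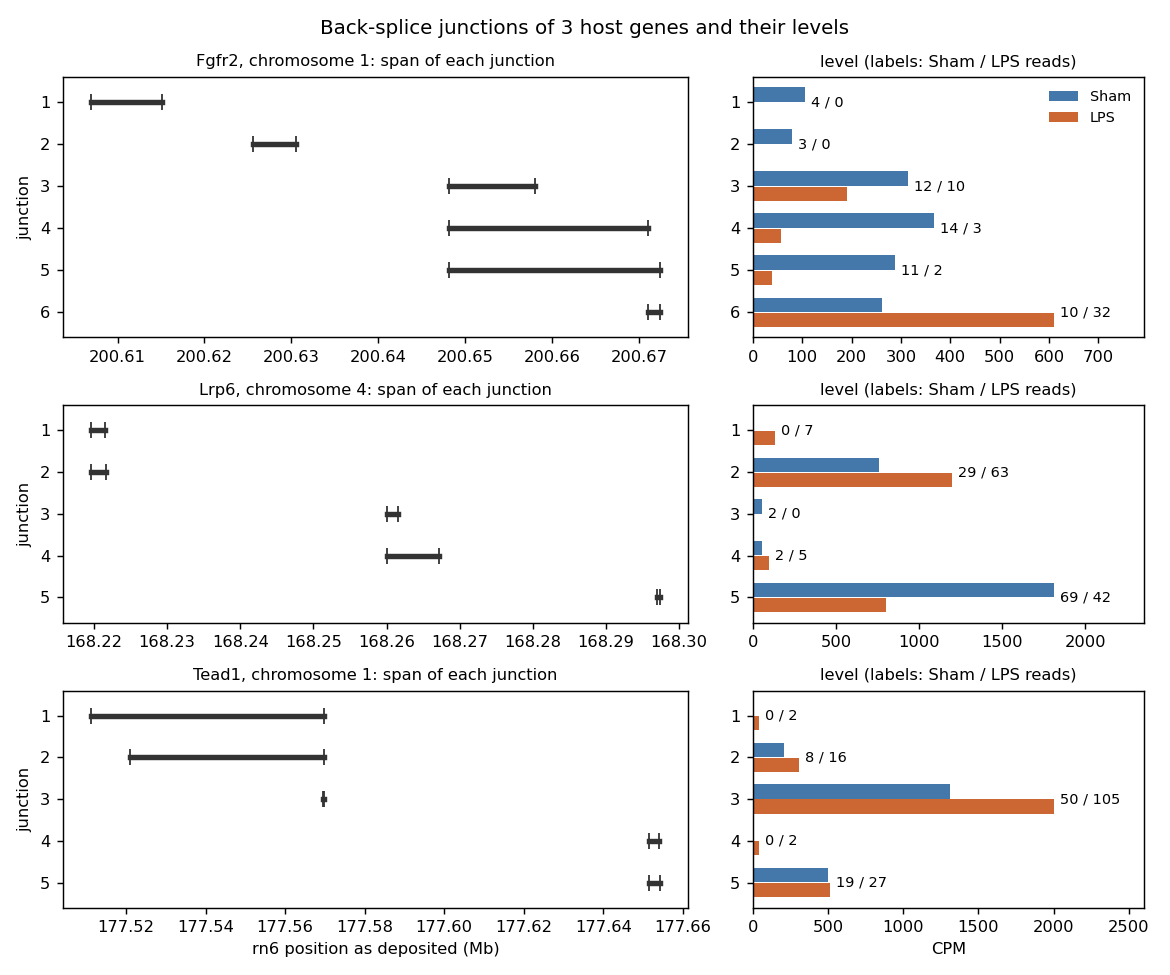
The left panels give the span of each junction of Fgfr2, Lrp6 and Tead1 in Mb of rn6. The right panels give the Sham and LPS level of each junction in CPM from 1 library each, with read numbers as labels. A label of 0 is taken as 0 or 1 read. In Fgfr2 and Lrp6 some junctions were higher in LPS and others lower. The 3 most-read Tead1 junctions had folds of 1.52 (1.08 to 2.18), 1.03 (0.553 to 1.96) and 1.45 (0.586 to 3.92), and only the first interval lies above 1.

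Guidance receptors and ligands steer axons in development and endothelial cells in growing vessels. Their 9 host genes and 11 circRNAs summed to 7084 CPM in Sham and 5999 CPM in LPS, a fold of 0.847 (0.718 to 1.0001). The sign flips on the scale of all shared circRNAs, from a log2 ratio of -0.24 to 0.22. Of the 3 with at least 20 reads, Sema3e was lower.

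Sema3e is a secreted semaphorin, and Plxnd1 is its receptor on endothelial cells. Sema3e had 26 reads in Sham and 5 in LPS at 1 junction of 21020 nt on chromosome 4 (17418848 to 17439867). The level was 682 CPM (466 to 999) for Sham against 95.2 CPM (40.7 to 223) for LPS, 7.16-fold lower (2.71 to 23.9). Plxnd1 was not lower to the same degree, with 217 and 281 reads, or 5694 and 5352 CPM, a fold of 0.940 (0.785 to 1.13). The ligand and its receptor therefore differed in how their circRNA levels compared between libraries.

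Plxnd1 had the most reads of the 54 host genes. Its junction from 147869323 to 147869704 on chromosome 4 spans 382 nt and ranked 17th of the listed circRNAs in Sham and 20th in LPS. It had 210 and 274 reads. An alternative added after seeing the data left out Plxnd1, and the summed level of the other 53 host genes then had a fold of 0.928 (0.848 to 1.02). A junction from the same start to 147869684 had 5 and 4 reads. Sema3f, a semaphorin that binds neuropilin 2, had 262 and 248 CPM, a fold of 0.944 (0.382 to 2.40). Its only junction was listed under 12 gene names. Nrp2, Plxna1 and Sema3c were listed only in Sham with 2 or 3 reads, and Plxnb1 only in LPS with 5.

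Hippo pathway genes, with 5 host genes and 13 circRNAs, summed to 4565 CPM in Sham and 5161 CPM in LPS, a fold of 1.13 (0.931 to 1.38). The log2 ratio of 0.18 changes sign on the scale of shared circRNAs with at least 50 reads, at -0.27. The paralogous kinases Stk3 and Stk4, known as Mst2 and Mst1, start the kinase cascade, and they lay on different sides. Stk3 had 28 reads in Sham and 80 in LPS, or 735 and 1524 CPM, 2.07-fold higher (1.33 to 3.31). All LPS reads were at the junction from 73834044 to 73848871 on chromosome 7. Stk4 had 51 reads in Sham and 37 in LPS, or 1338 and 705 CPM, a fold of 0.527 (0.335 to 0.820). Stk4 was just within 2-fold, and its fold interval does not overlap that of Stk3.

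Lats2, the kinase that these enzymes activate, had 11 Sham reads and 2 LPS reads, 7.58-fold lower (1.65 to 70.4). Yap1, the coactivator at the end of the cascade, was listed only in Sham, with 7 reads over 2 junctions that end at 6161740 on chromosome 8. Both were below the read minimum. Tead1, the transcription factor through which Yap1 acts, had 77 reads in Sham and 152 in LPS, or 2020.4 and 2895 CPM, a fold of 1.43 (1.08 to 1.91). Its 256 nt junction from 177569617 to 177569872 on chromosome 1 had 50 and 105 reads. That end is shared with junctions of 48801 nt and 58635 nt, each listed under 20 gene names. The latter is the longest span among the 106 circRNAs. The 48801 nt junction had 8 and 16 reads, a fold of 1.45 (0.586 to 3.92). Both more abundant junctions at this end thus had higher CPM in LPS, the longer one not beyond counting error.

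Notch3, a receptor of mural cells, was the only Notch gene listed, with 2 reads in Sham.

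The 3 Tcf genes listed are all among the symbols known for other roles. Tcf4 and Tcf12 encode E proteins, basic helix-loop-helix factors unrelated to the Tcf factors of Wnt signaling, and Tcf25 encodes a protein of ribosome quality control. Their sum was 1338 CPM in Sham and 2038 CPM in LPS, a fold of 1.52 (1.08 to 2.17). Tcf4 had 9 reads in Sham and 45 in LPS, or 236 and 857 CPM, 3.63-fold higher (1.75 to 8.44). The difference was spread over several of its 5 junctions on chromosome 18. The junction from 65285320 to 65288857 had 6 and 21 reads, and the one from 65456672 to 65460654 had 15 reads in LPS only, at least 2.30-fold higher. Tcf12 had 2 and 10 reads, a fold of 3.63 (0.773 to 34.1), and Tcf25 had 40 and 52, a fold of 0.944 (0.613 to 1.46).

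Other kinases, with 7 host genes and 12 circRNAs, summed to 1364 CPM in Sham and 1009 CPM in LPS, a fold of 0.740 (0.495 to 1.11). Hipk2, a nuclear kinase that acts on p53, had 499 and 381 CPM, a fold of 0.764 (0.387 to 1.51). Stk38, a relative of the Lats kinases, had 446 and 399.96 CPM, a fold of 0.897 (0.451 to 1.81). Hipk3 had 7 Sham reads and 4 LPS reads. None of these differed beyond counting error.

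At the level of single junctions, 34 of the 106 circRNAs were at least 2-fold higher in LPS (32.1%), beside 35.7% of all 4734, and 47 were at least 2-fold lower (44.3%), beside 43.3%. These shares lie near those of the whole table. Most such calls rest on few reads, since 66 of the 106 had fewer than 10 (62.3%, against 66.6% of all). Of the 40 with at least 10 reads, 6 were at least 2-fold higher (15%), beside 29.1% of the 1580 circRNAs with that many reads, and 14 were at least 2-fold lower (35%), beside 29.6%. Higher calls were therefore a smaller share than in the whole table, with no test of that difference.

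That split too moved with the scale, to 11 higher and 9 lower (all circRNAs, 588 and 327) on the scale of all shared circRNAs. On the scale of shared circRNAs with at least 50 reads it was 2 and 17 (all circRNAs, 377 and 609). The 6 higher junctions belong to Fgfr2, Pdgfb, Stk3, Tcf12 and Tcf4, the last with a pair of them. The lower ones belong to Acvr1, Bmpr2, Ctnnbl1, Fgfr1op2, Fgfr2, Hipk3, Lats2, Lrp5, Lrp6, Sema3e, Stk4, Tek and Tgfbr2. Junctions of a host gene share that gene and are not replicates of a condition.

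Both libraries listed 45 of the 106 circRNAs (42.5%, against 37.1% of all), while 33 were listed only in Sham (31.1%, against 32.4%) and 28 only in LPS (26.4%, against 30.5%). Those of a single library had a median of 3 reads, and only the Tek and Tcf4 junctions named above had at least 10. That is 3.03% of the Sham-only ones, against 4.83% in the whole table, and 3.57% of the LPS-only ones, against 15.7%. By host gene, 35 of the 54 had reads in both libraries (64.8%, against 52.2% of all), 13 only in Sham (24.1%, against 24.3%) and 6 only in LPS (11.1%, against 23.5%). No test of these differences was made. The 32 host genes below 20 reads had 2 to 19, with a median of 7.

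The circRNAs spanned 145 to 58635 nt between junction ends, with a median of 3487.5 nt, against 4394 nt for all. Spans of at least 25000 nt were found for 6 (5.66%, against 11.1% of all), and spans of at most 500 nt for 13 (12.3%, against 12.5%). A junction end shared with another circRNA of the same gene was found for 47 of the 106 (44.3%, against 36.7% of all circRNAs with a host gene). Besides Fgfr2, the host genes Lrp6, Tead1, Bmpr2 and Tcf4 had 5 circRNAs each, and 30 of the 54 had 1. Of the 24 with several, 12 had some circRNAs at least 2-fold higher and others at least 2-fold lower (50%, against 46.0% of all such host genes). Both shares count junctions listed in a single library, which pass 2-fold at any read number. Lrp6 is among the 12 only through its junction with 7 reads in LPS only, since its junction with 29 and 63 reads was under 2-fold. How common opposite directions are among junctions with reads in both libraries was not computed. The shares also include junctions with too few reads for a direction, as in Lrp5.

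Other genes of the same pathways were taken from lists that leave out the symbols above. Of 153 genes, 51 had circRNAs listed and 15 had at least 20 reads, of which 5 were at least 2-fold higher and 4 at least 2-fold lower, beside 24.3% and 20.3% of all host genes. With 15 genes, nothing particular to these lists is read from the counts. Their median log2 ratio was -0.04, against 0.08 over all. The Hippo list held 3 with at least 20 reads. Nf2, the upstream activator merlin, had 66 Sham reads and 234 LPS reads, a fold of 2.57 (1.95 to 3.44). Taok1, a kinase that phosphorylates the Mst enzymes, had 83 and 273 reads, a fold of 2.39 (1.86 to 3.09). Wwc1, the scaffold Kibra, was lower, with 60 and 30 reads, 2.76-fold lower (1.75 to 4.42). Upstream Hippo genes thus also lay on both sides.

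In the receptor tyrosine kinase list, 2 of 32 genes had at least 20 reads. Gab1, a docking protein of these receptors, had 128 and 62 reads, 2.84-fold lower (2.08 to 3.92). Cbl, the ubiquitin ligase that ends their signal, had 7 and 30 reads, a fold of 3.11 (1.34 to 8.39). Angpt1, the activating ligand of Tek, is named here after its values were seen. It had 14 Sham reads and 2 LPS reads, 9.64-fold lower (2.21 to 87.4), and is below the read minimum. Acvr1, Acvr1b, Acvr2a, Acvrl1, Bmp1, Ctnna1, Fgfr1, Igf1r, Insr, Lats2, Smad1 and Yap1 were likewise singled out after their values were seen. So were Nrp2, Pdgfra, Plxna1, Plxnb1 and Sema3c.

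Of the TGF-beta and BMP list, 5 of 26 genes had at least 20 reads. Furin, the protease that cleaves TGF-beta precursors, had 14 and 49 reads, a fold of 2.54 (1.38 to 4.98), and Nedd4, a ubiquitin ligase, had 35 and 38. In the Notch list, 3 of 18 had as many. Spen, a corepressor of Notch targets, had 8 and 47 reads, a fold of 4.26 (2.00 to 10.4). Mib1, which activates Notch ligands, had 17 and 23. In the Wnt list, 1 of 35 had 20 reads, the corepressor Tle1 with 35 and 25, while Btrc, which marks beta-catenin for degradation, had 11 reads in LPS only. In the guidance list, 1 of 20 did, the Slit-Robo effector Srgap1 with 18 and 11 reads, 2.25-fold lower (1.01 to 5.28), and the netrin receptor Neo1 had 5 reads in Sham only.

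The labelled tissue was compared with marker genes of lung cell types, which linear-depleted libraries show only through their circRNAs. Alveolar epithelium had 4 of 11 markers listed, 1574 CPM in Sham and 2190.3 CPM in LPS, most of it Rtkn2 with 53 and 112 reads. Sftpc, defining for alveolar type II cells, had 5 Sham reads, and Sftpb, Ager, Hopx and Aqp5 were not listed. Fibroblasts had 4 of 8 markers listed, at 10810.2 and 5104 CPM, a fold of 0.472 (0.403 to 0.552). Eln had the most reads, 331 and 206, and Col3a1 had 70 and 2. Npnt went the other way, with 11 and 57, and Col6a3 had 3 reads in LPS only, while Col1a1, Col1a2, Dcn and Tcf21 were not listed.

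Macrophages had 3 of 8 markers listed with 2 Sham reads and 12 LPS reads in all, Mrc1 the most abundant with 2 and 4, and Cd68 and Marco were not listed. Neutrophils had 1 of 9, Csf3r, with 25 reads in LPS only, at least 3.83-fold higher, and S100a8 and S100a9 were not listed. No marker of airway epithelium (8 genes), smooth muscle (5) or lymphocytes (9) was listed. The summed fibroblast markers were thus lower and the neutrophil marker higher in the LPS library, and the part of these cell types in the results above was not tested.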

How the data were processed

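CircRNA libraries of rat lung, 1 Sham and 1 LPS, were analysed from 1 table of junctions. The authors deposited values headed TPM, which are CPM of junction reads. The value 0.001 was taken as 0 or 1 read, since the lowest other value was 2 reads. The submitters' processing notes name CASAVA 1.8, BWA and rn6. The circRNA caller is not given in the sources used here. The methods name a SmartPCR cDNA kit and RsaI, whereas the labels describe ribosomal RNA removal, RNase R and a strand-marked library. Whether positions count from 0 or 1 is not stated.

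Reads were recovered as CPM divided by the value of 1 read. All values above the fill-in were whole within 0.01 reads. A junction was given to its last listed name. Names found on more than 1 chromosome, 36 in number, were taken as small RNA families. Where the last name was among these, or no name was listed, no host gene was given (414 circRNAs). Of the 106 circRNAs, 11 were listed under several gene names. A fill-in allowed up to 4.74 reads (124 CPM in Sham, 90.4 CPM in LPS), the one-sided 95% Poisson limit for 1 hidden read, and the sum of 2 fill-ins allowed up to 6.30 reads. These limits set each "at least" fold, which takes the listed reads as counted and leaves out their own counting error. The members and lists were chosen with earlier results of these data known. Named were the 3 most-read genes per role group, the 6 largest and 6 smallest ratios, genes of 1 library with at least 10 reads and the 5 most-read junctions. In the other pathway lists, the 2 most-read genes per list and the 3 largest and 3 smallest ratios were named. A gene that this rule names is not reported here. Alternatives changed the read minimum, the fold, the scale, the fill-in, the reads added, junctions and members. Steps were tested on simulated Poisson reads, with 4-fold changes set only at junctions with more than 10 expected reads at the Sham depth. Calls at fewer reads or smaller folds were not covered. Software was scipy 1.17.1 with pandas 2.3.3 and numpy 2.4.6 under Python 3.11.15, and matplotlib 3.10.9 for plots.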

Additional observations from a re-analysis of the deposited data

How the results depend on the processing

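No paired analysis was possible because there was a single library per group, and for the same reason none could be left out in turn. Depth limits most genes, since up to 4.74 reads in a library are within the limit of a fill-in. Of the counts of higher and lower host genes and junctions, 24 values stayed within 1.5 times and 14 did not. For the summed levels, 27 values stayed within the counting interval and 15 left it, and for named host genes with reads in both libraries 124 did, 15 left it and 2 reversed.

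The 3 lower host genes became 11 with a read minimum of 10, 0 with one of 50 and 23 with none, and the 4 higher ones became 2 with a minimum of 50 and 12 with none. With a minimum of 10 these were 5 higher and 11 lower of 34 (all host genes, 24.8% and 27.0%), with 50 they were of 13 (22.3% and 12.3%) and with none of 54 (30.9% and 38.3%). Host genes listed in a single library pass 2-fold at any read number, because the fill-in is set to 0. With circRNAs of a single gene name 4 host genes were higher and 4 lower, Bmpr2 being added to the lower ones. At 1.5-fold 6 host genes were higher and 7 lower, and at 4-fold 1 was higher and 2 were lower. For single gene names and for these folds no share over all host genes was computed, and nothing is read from the counts. Higher junctions fell from 34 to 17 at 4-fold, to 16 with the fill-in as 1 read and to 6 with at least 10 reads. Lower junctions, 47 in the main setting, were 39, 47 and 14 in the same order. No share over all circRNAs was computed at 4-fold or with the fill-in as 1 read, and nothing is read from those counts. The read minimums and fold thresholds act by what they keep, and the fill-in by the value given to unlisted junctions.

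On the scale of all shared circRNAs, log2 ratios of summed levels were 0.36 for all host genes, 0.039 for TGF-beta and BMP, 0.13 for Wnt and catenins, 0.57 for receptor tyrosine kinase systems, 0.22 for guidance and 0.64 for Hippo. On the scale of shared circRNAs with at least 50 reads they were -0.55, -0.87, -0.77, -0.34, -0.68 and -0.27 in the same order. On that scale 7 host genes were lower (31.8%, against 31.7% of all with at least 20 reads). Both shifts follow from the medians of the scales. The other kinases also changed sign, from -0.43 to 0.027, on the scale of all shared circRNAs, and the Tcf genes stayed positive on both scales.

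Without the most-read junction of each host gene, 1 host gene was higher and 1 lower. No share over all host genes was computed for this setting, and nothing is read from these counts. The sums were 0.023 for TGF-beta and BMP, 0.75 for Wnt and catenins and -2.09 for receptor tyrosine kinase systems. Lrp5 reversed to 2.71 and Stk3 to -3.27, and Flt1 and Stk4, which were within 2-fold, went to -3.92 and 2.71, each left with junctions of a single library. For Lrp5 only 4 LPS reads were left. Tek moved from -3.35 to -1.31, Fgfr2 from -0.66 to -1.98, Lrp6 from -0.27 to 0.71 and Plxnd1 from -0.09 to -0.46. The cause was not tested.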
